A study of Mus musculus with 10 samples.

Results

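The 10 genes described here are the core of the circadian clock and its main output factor: Arntl (older symbol Bmal1), Clock, Npas2, Per1, Per2, Per3, Cry1, Nr1d1, Nr1d2 and Dbp. They were found by gene name on Agilent mouse expression arrays, where 17 of 41174 probes carried one of these names. Of these, 15 probes gave a signal well above background on at least 4 of the 5 arrays of a group, and 9 of the 10 genes were tested among 15809 genes. Npas2 was the gene that was not tested.

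The study hybridised liver RNA from mice lacking the orphan nuclear receptor TAK1/TR4 (gene symbol Nr2c2; 5 arrays, KO1 to KO5) and from wild-type mice (5 arrays, WT1 to WT5). Both groups were C57BL/6, 1 year old, and no other allele, agent or diet is given for these samples in the sources used here. Sex, hour of collection, lighting and feeding before collection, and the design of the knockout allele, are likewise not given in the sources used here. No label says that the RNAs came from different animals, so each p-value measures the spread between these samples, which may be technical.

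In mammals, ARNTL pairs with CLOCK or NPAS2 and switches on genes that carry an E-box, among them the Per, Cry, Nr1d and Dbp genes. PER and CRY proteins then inhibit that pair, and NR1D1 and NR1D2 repress Arntl, so that in mouse liver Arntl and Npas2 messages run out of step with those of Nr1d1, Dbp and the Per genes over the day. DBP in turn acts on D-boxes of further genes. One array is one moment, so a low Dbp level can be an early or late phase or a flatter rhythm, and these cannot be told apart here. In bulk liver, fewer cells of a type and less RNA per cell cannot be told apart either.

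The Arntl probe and 3 probes that read different stretches of Nr1d1 and Per2 are shown because the probes of the last 2 genes differed in their values below. All are written 5′ to 3′ as the array files give them, and their positions are on the mouse build mm7 of those files. No letter is in capitals in these 4 sequences.
Arntl (A_52_P267651, chr7:109229489-109229548): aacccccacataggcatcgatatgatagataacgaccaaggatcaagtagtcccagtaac
Nr1d1 (A_51_P223776, chr11:98878251-98878753): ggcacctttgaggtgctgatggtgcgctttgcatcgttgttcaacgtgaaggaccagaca
Nr1d1 (A_52_P130952, chr11:98881057-98881116): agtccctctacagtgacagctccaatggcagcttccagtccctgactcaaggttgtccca
Per2 (A_52_P536869, chr1:91347406-91347465): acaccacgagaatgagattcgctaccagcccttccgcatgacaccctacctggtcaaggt
The first Nr1d1 probe has 60 bases spread over 503 bases of the genome, so it does not lie in 1 unbroken stretch. No genome of that build was used here, so exons, introns and untranslated regions were not assigned.

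Promoter letters are shown for 4 members that hold a match. These genes moved together or oppositely over the arrays and are textbook targets of the factors named above. They come from RefSeq on build GRCm38.p6, on the strand of the gene, and capitals mark each match, on either strand, to the E-box CACGTG, the related CACGTT, the D-box TTATGTAA and the ROR element ANTAGGTCA.
Per3 (chr4:151044666-151044915, minus strand): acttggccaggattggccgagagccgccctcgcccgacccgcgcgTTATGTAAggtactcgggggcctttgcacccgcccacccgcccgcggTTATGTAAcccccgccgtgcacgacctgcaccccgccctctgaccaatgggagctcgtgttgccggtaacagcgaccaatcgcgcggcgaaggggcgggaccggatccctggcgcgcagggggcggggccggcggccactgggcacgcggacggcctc
Cry1 (chr10:85185055-85185304, minus strand): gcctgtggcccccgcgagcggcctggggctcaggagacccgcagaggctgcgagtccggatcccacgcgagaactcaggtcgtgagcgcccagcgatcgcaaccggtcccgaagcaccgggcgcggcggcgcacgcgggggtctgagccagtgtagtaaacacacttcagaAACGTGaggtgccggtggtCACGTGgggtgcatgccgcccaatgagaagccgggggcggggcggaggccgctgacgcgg
Per1 (chr11:69098699-69098948, plus strand): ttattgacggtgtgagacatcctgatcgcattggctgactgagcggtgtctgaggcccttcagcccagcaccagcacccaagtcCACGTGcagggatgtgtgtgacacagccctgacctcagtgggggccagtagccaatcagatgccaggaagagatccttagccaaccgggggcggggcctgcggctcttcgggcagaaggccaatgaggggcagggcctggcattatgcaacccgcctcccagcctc
Arntl (chr7:113207529-113207558, plus strand): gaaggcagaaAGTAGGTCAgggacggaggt
The Per3 window holds 2 D-boxes, which begin 205 and 158 bases before the start of the gene. Among 32851 promoter windows of 300 bases, 0.938% hold a D-box and 0.0213% hold 2 or more. The Cry1 window holds an E-box 60 bases before the start and, on the other strand, CACGTT 79 bases before it, and the Per1 window holds an E-box at 166 bases. E-boxes occur in 7.15% of all windows and CACGTT in 4.68%. The Arntl match to the ROR element lies 29 bases after the start, and 0.661% of windows hold one. The search also took in the short core AGGTCA, which 16.3% of windows hold. With it, 7 of the 9 members with a promoter sequence held a match, in 7 of 13 windows. The share of all windows that hold any of the searched motifs was not computed, so this count cannot be weighed. Nr1d1 held CACGTT 28 bases before the start, and Dbp and Npas2 held no match. A match is a run of letters and not a measured binding site.

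All levels below are log2 values of the background-subtracted signal relative to the 75th percentile of the same array, so 0 is the level of that percentile, and levels of different probes are not compared. The spots of the members were unsaturated on every array. A gene is said to have changed where the limma test of KO against WT gave a Benjamini-Hochberg adjusted p under 0.05. Differences are KO minus WT on the log2 scale, with the standard error of the limma fit (n = 5 arrays each). The groups share slides only in part: KO1, KO2, KO3 and WT5 lay on slide 2, KO5 on slide 3, KO4 on slide 4, and WT1 to WT4 on slide 1.

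As a check of the labels, a cDNA probe within the Nr2c2 locus (chr6:92237812-92237871, mm7) was well above background on 0 of 5 KO and 5 of 5 WT arrays, and was at least 5.25-fold lower in KO (limma adjusted p over probes = 0.000212). The 2 probes named Nr2c2 lie elsewhere in the locus and were above background on all arrays. They stood 0.44 and 0.36 higher in KO (limma adjusted p over probes = 0.0428 and 0.144), so the first passed the threshold in the direction opposite to a loss. The labels do not name the deleted stretch of the gene. Among the arrays, KO2 was set apart from the other 4 arrays of its group, with a gap of more than 0.71 of the group's range, for 5.14% of all genes. WT1 came next, with 2.23%, and each of the other 8 arrays was set apart for at most 1.95%.

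No clock gene changed between KO and WT livers by the limma test over all genes: 0 of 9 tested members had an adjusted p under 0.05, against 5.91% of all genes. Over probes, 0 of the 15 kept clock probes passed, against 5.05% of all probes. At an unadjusted p under 0.05 there were 4 of 9, namely Arntl, Clock, Nr1d1 and Dbp, or 44.4% of the members against 23.7% of all genes. The KO and WT arrays overlapped for all 9 members, while 9.61% of all genes did not overlap. The median absolute difference of the 9 members was 0.51, against 0.16 for all genes, and their spread between arrays was larger too: the median SD was 0.53 in KO and 0.42 in WT, against 0.23 in KO and 0.14 in WT for all genes. Over all genes 385 rose and 550 fell in KO, and this split moved to 314 and 156 with no scaling between arrays and to 153 and 558 with median centring.

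The activating arm of the clock stood higher in KO, without passing the test. Arntl, whose protein is the essential partner in the activator pair, had 0.42, 0.74, 1.14, 0.37 and -0.30 on KO1 to KO5, against 0.74, -0.71, -0.51, -0.97 and -0.48 on WT1 to WT5. The 5 KO arrays were all above 4 of the 5 WT arrays, and the groups overlapped because WT1 stood as high as KO2. The Arntl means were 0.47 ± 0.53 in KO and -0.39 ± 0.66 in WT (SD, n = 5 each), a difference of 0.86 ± 0.34 or 1.81-fold higher in KO (limma adjusted p = 0.167; exact two-sided permutation p = 0.0635, where the smallest possible is 0.0079). Without WT1 the Arntl difference was 1.14 with a limma adjusted p of 0.0535, and within slide 2 it was 1.24.

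Clock, which encodes the main partner of ARNTL, had 1.53, 1.38, 1.35, 1.19 and 1.39 on KO1 to KO5, against 1.25, 0.96, 1.21, 0.94 and 1.07 on WT1 to WT5. All KO arrays but KO4 were above every WT array. The difference was 0.28 ± 0.09 or 1.21-fold higher in KO, with the smallest unadjusted p among the members (limma p = 0.0103, adjusted p = 0.0963; exact permutation p = 0.0238). Its other 3 probes gave differences of 0.27, 0.42 and 0.24, so that all 4 Clock probes were higher in KO. Clock had the smallest spread of the members, with SDs of 0.12 in KO and 0.14 in WT.

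Npas2, the alternative partner of ARNTL, was well above background on 0 of 5 KO and 1 of 5 WT arrays, that one being WT1. Its signal was -5.83, -5.09, -4.41, -6.12 and -6.43 on KO1 to KO5, against -4.34, -6.76, -6.91, -5.97 and -6.36 on WT1 to WT5. At signals this dim the order of the arrays is not reliable, and no fold is given.

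Among the repressors, the Period genes gave differences of -0.09, -0.88 and -1.22, none of them past the threshold. Per1, whose message also responds acutely to light and hormones, had -0.22, -0.47, -1.03, -0.35 and 0.20 on KO1 to KO5, against -1.02, -0.39, 0.16, 0.27 and -0.45 on WT1 to WT5. The 2 groups covered nearly the same range, and the difference was -0.09 ± 0.28 (limma adjusted p = 0.879). The sign of the Per1 difference turned with no scaling between arrays (0.022), and without KO3, WT3 or WT4 (0.077, 0.025 and 0.052).

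Per2, which like Per1 encodes a direct inhibitor of the ARNTL and CLOCK pair, had -0.27, -2.68, -2.44, -1.03 and -0.34 on KO1 to KO5, against -1.22, -0.24, -0.26, -0.27 and -0.39 on WT1 to WT5. KO2 and KO3 lay far below the other arrays, while KO1 and KO5 lay among WT2 to WT5, so the KO group was split. The SD of Per2 was 1.15 in KO and 0.42 in WT, and the difference was -0.88 ± 0.49 (limma adjusted p = 0.307). It was -0.54 without KO2, and -0.33 with the mean over its probes. A dimmer second Per2 probe, the one whose letters are given above, did not follow the first: it ran from -3.34 to -2.51 in KO and from -3.38 to -2.36 in WT, with a difference of 0.21 ± 0.21 (limma adjusted p over probes = 0.579).

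Per3, the third Period gene, had -4.60, -6.37, -6.13, -3.58 and -3.85 on KO1 to KO5, against -5.04, -3.21, -3.61, -3.18 and -3.37 on WT1 to WT5. KO2 and KO3 were again the lowest arrays, and there Per3 was not well above background. It was well above background on the other 3 KO arrays and on 5 of 5 WT arrays. The difference was -1.22 ± 0.60 (limma adjusted p = 0.249), -0.86 without KO2 and -1.56 without WT1. With 2 KO arrays near background its size depended on the processing: it was -0.48 with normexp background correction and quantile normalization, and -2.32 within slide 2.

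Cry1, whose protein is the stronger repressor of the CRY pair and whose message peaks later than those of the Per genes in mouse liver, had -3.45, -4.02, -3.20, -2.99 and -4.45 on KO1 to KO5, against -3.13, -3.96, -3.85, -4.15 and -4.06 on WT1 to WT5. KO5 was the lowest and KO4 the highest of all 10 arrays. The difference was 0.21 ± 0.29 (limma adjusted p = 0.714), the least of any member after Per1. Cry1 was dim, and on WT4 it was not well above background. A second Cry1 probe was above background on 1 KO and 1 WT array and was not tested.

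The nuclear receptors that repress Arntl stood lower in KO, without passing the test. Nr1d1 had 0.25, -0.33, 0.54, 0.79 and 0.53 on KO1 to KO5, against 0.33, 0.71, 1.20, 1.08 and 1.02 on WT1 to WT5. KO2 was the lowest array, and WT3, WT4 and WT5 were above all KO arrays. The difference was -0.51 ± 0.23 or 1.43-fold lower in KO (limma p = 0.0459, adjusted p = 0.203; exact permutation p = 0.0635), and -0.34 without KO2.

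The 3 Nr1d1 probes gave differences of unlike sign. The bright probe above, spread over 503 bases, gave the values just listed. The second, whose letters are also given, ran from -2.91 to -2.02 in KO and from -2.59 to -2.21 in WT, a difference of -0.14 ± 0.16. The third (chr11:98884160-98884219, mm7), which the files name from a cDNA clone and not from the RefSeq transcript, ran from -3.52 to -2.25 in KO and from -3.91 to -2.96 in WT, a difference of 0.62 ± 0.25 (limma adjusted p over probes = 0.179). With the mean over its probes in place of the brightest, the Nr1d1 difference was -0.01. Whether the probes read different transcripts was not tested.

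**Figure D1:**
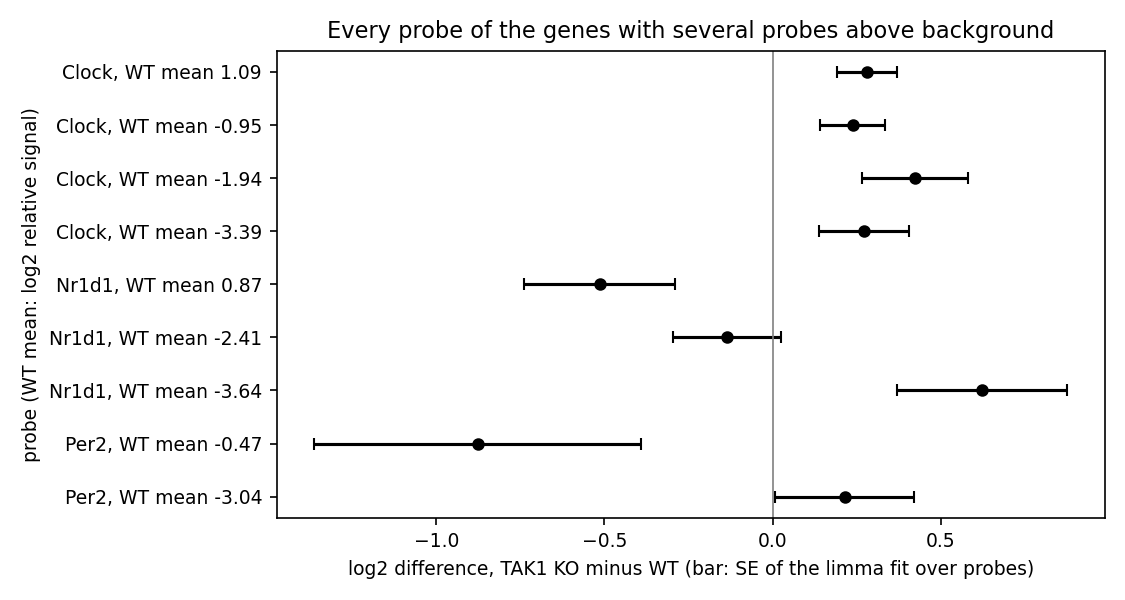
Difference KO minus WT (log2) with the standard error of the limma fit over probes, for each kept probe of Clock, Nr1d1 and Per2, labelled with its WT mean level. The 4 Clock probes are all right of 0, whereas the probes of Nr1d1 run from -0.51 to 0.62 and those of Per2 from -0.88 to 0.21.

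Nr1d2, the paralog of Nr1d1 with an overlapping role, had 1.25, 0.82, 1.25, 1.51 and 1.56 on KO1 to KO5, against 1.14, 1.80, 1.75, 1.89 and 1.69 on WT1 to WT5. Every KO array was below WT2 to WT5, and only WT1 lay among the KO arrays. The difference was -0.37 ± 0.17 or 1.30-fold lower in KO (limma adjusted p = 0.225; exact permutation p = 0.0714), and -0.50 without WT1.

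Dbp, the PAR bZip factor that carries the rhythm to many liver genes, was the member with the widest range. It had 3.83, 0.82, 2.87, 4.0 and 4.68 on KO1 to KO5, against 3.16, 5.67, 5.16, 5.39 and 5.25 on WT1 to WT5. As for Nr1d2, every KO array was below WT2 to WT5, and WT1 lay among the KO arrays. The Dbp means were 3.24 ± 1.50 in KO and 4.92 ± 1.01 in WT (SD, n = 5 each), a difference of -1.69 ± 0.72 or 3.22-fold lower in KO (limma p = 0.0415, adjusted p = 0.194; exact permutation p = 0.0714). Its KO SD was larger than that of 99.4% of all genes and its WT SD larger than that of 99.2%. KO2 decided much of the size: without it the Dbp difference was -1.08, and without WT1 it was -2.13.

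**Figure D2:**
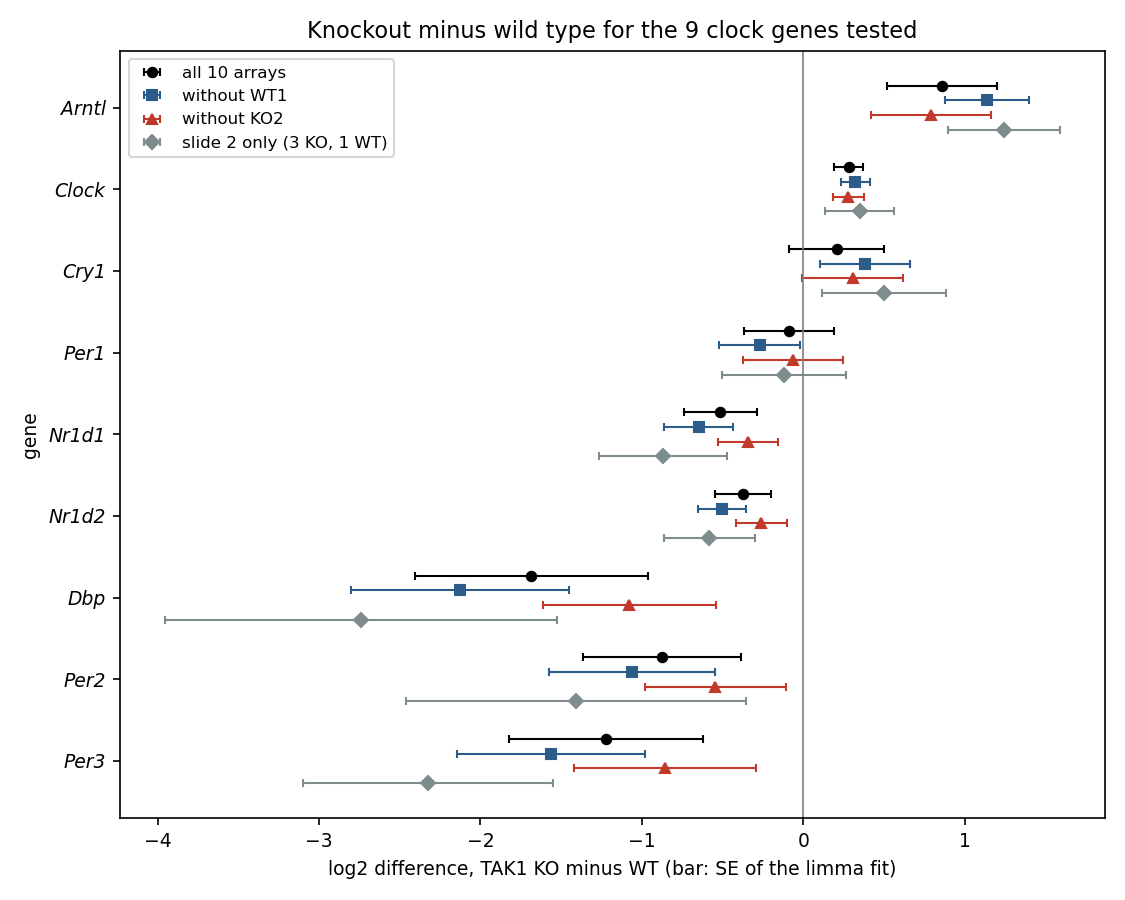
Difference KO minus WT (log2) of the 9 tested clock genes with the standard error of the limma fit, for all 10 arrays, without WT1, without KO2 and on slide 2 alone (3 KO arrays and 1 WT array). Arntl and Clock lie right of 0 and Nr1d1, Nr1d2, Dbp, Per2 and Per3 left of 0 in all 4 fits, and the Dbp difference runs from -2.74 on slide 2 to -1.08 without KO2.

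Within KO, the extreme values were spread over the arrays. KO2 had the lowest or highest KO value for 5 of the 9 members, namely the lowest Dbp, Per2, Per3, Nr1d1 and Nr1d2. KO5 had the lowest Arntl and Cry1 and the highest Dbp, Nr1d2 and Per1. KO4 had the highest Per3, Cry1 and Nr1d1 and the lowest Clock. KO3 had the highest Arntl and the lowest Per1, and KO1 the highest Clock and Per2. Among 5 arrays any array is often the lowest or highest, and the share over all genes was not computed. Without KO2 the KO SD of Dbp was 0.75 in place of 1.50, and that of Per2 was 1.01 in place of 1.15. KO5 was the KO array nearest to WT2 to WT5 in Dbp, Nr1d2 and Arntl. The order of the KO arrays went with slide in some members. KO1, KO2 and KO3, on slide 2, were all above KO4 and KO5 in Arntl. They were all below KO4 and KO5 in Dbp, Nr1d2 and Per3. Clock, Per1, Per2, Cry1 and Nr1d1 were not split in this way. Slide and sample cannot be told apart here.

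For most members the spread within WT came largely from 1 array. WT1 lay outside the range of WT2 to WT5 for all 9 tested members and inside the KO range for all 9. Its distance from the mean of the other 4 WT arrays was 1.40 for Arntl, 0.88 for Cry1 and 0.21 for Clock, and -2.21 for Dbp, -1.70 for Per3, -0.93 for Per2, -0.92 for Per1, -0.67 for Nr1d1 and -0.65 for Nr1d2. These signs are those of the KO minus WT differences in the 9 members. The members vary together, so the 9 are not independent, and the share of all genes with WT1 so placed was not computed. Over all genes the KO arrays spread more widely, with a median SD of 0.23 in KO and 0.14 in WT. Leaving WT1 out, the WT SD of Dbp was 0.22 in place of 1.01, that of Per2 0.07 in place of 0.42, and that of Arntl 0.22 in place of 0.66. It moved less for Per1 (0.37 in place of 0.52) and for Clock (0.12 in place of 0.14).

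**Figure D3:**
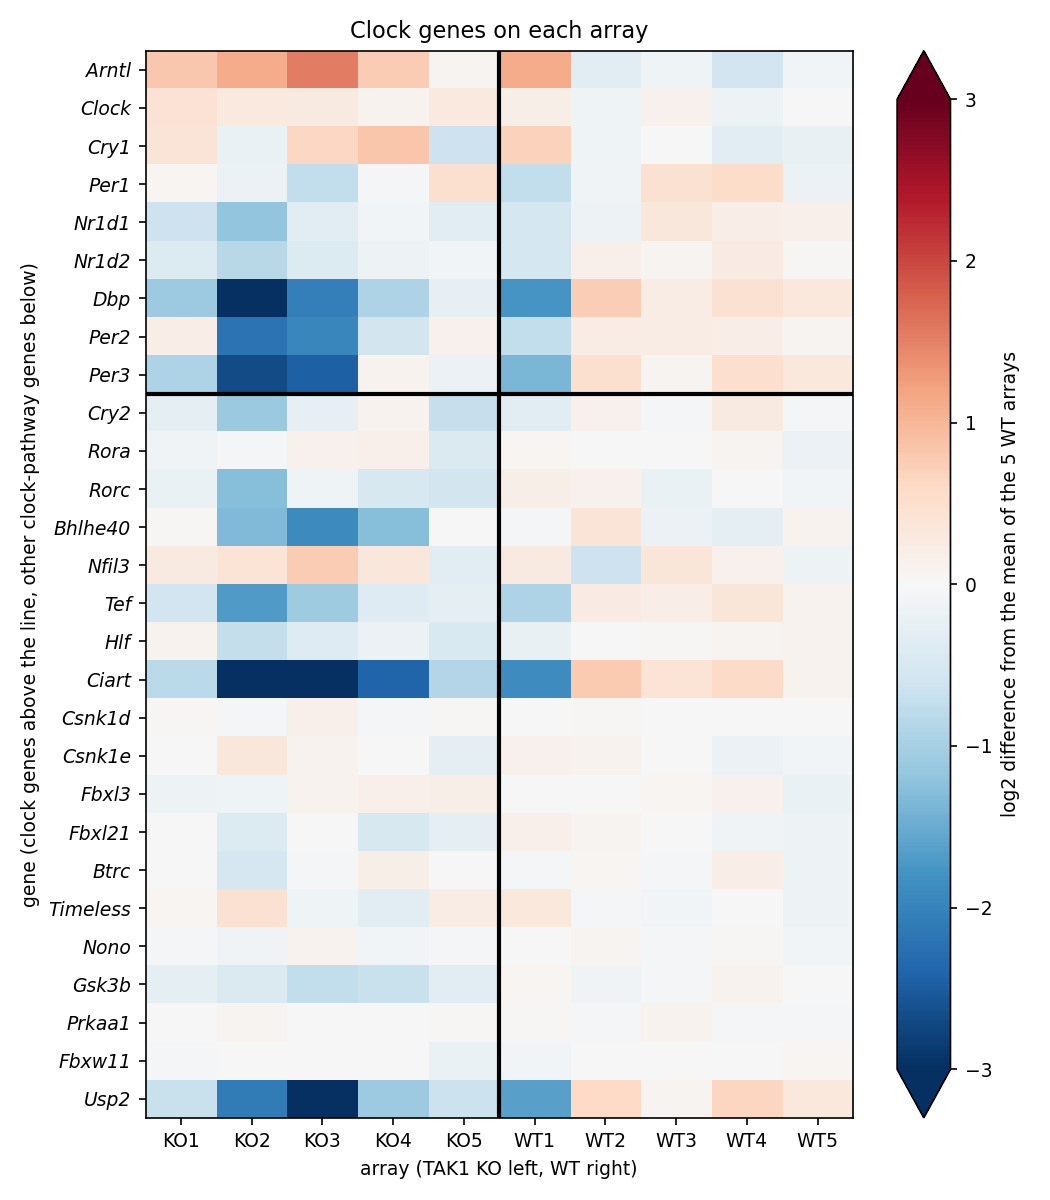
Difference of each array from the mean of the 5 WT arrays (log2, red higher and blue lower, colours end at 3) for the 9 tested clock genes above the horizontal line and 19 further genes of the clock pathway below it, with KO arrays left and WT arrays right. KO1 to KO5 and WT1 lie above the WT mean in Arntl and below it in Dbp, Tef, Ciart and Usp2, and WT2 to WT5 lie on the other side in each of these genes. Tef, Ciart and Usp2 are named here because they varied like Dbp.

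From array to array inside the groups, 6 of the other 8 tested members passed for Pearson r with Arntl. Of these, Per2 and Cry1 did not pass by rank. The share of all genes with such an r was not computed, and genes outside the members reached 0.97 (Dtx4) and -0.93 (Zfp979). To leave out the difference between groups, the mean of its group was subtracted from each value, and Arntl was set against each member over the 10 arrays. Per1 fell as Arntl rose, with Pearson r = -0.90 (Spearman rho = -0.79; exact permutation within groups, p adjusted over the 8 relations = 0.0122 for r). Without the 2 arrays farthest from the median of Arntl, WT1 and KO3, r was -0.71. The same direction held for Per3 (r = -0.83, rho = -0.78, exact permutation adjusted p = 0.0294) and for Nr1d2 (r = -0.82, rho = -0.93, exact permutation adjusted p = 0.0311), with r of -0.67 and -0.81 without those 2 arrays.

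Dbp was low where Arntl was high (r = -0.76, rho = -0.75, exact permutation adjusted p = 0.0311), with r = -0.74 without WT1 and KO3, r = -0.97 without KO2, the array with the lowest Dbp, and r = -0.64 without WT1. For Nr1d2, r was -0.64 without WT1 too. Per2 gave r = -0.73 (rho = -0.59, exact permutation adjusted p = 0.0304 for r and 0.107 for rho). Cry1 was the member that rose with Arntl (r = 0.72, rho = 0.60, exact permutation adjusted p = 0.0423 for r and 0.107 for rho), but without WT1 and KO3 its r was 0.46. Nr1d1 (r = -0.51, exact permutation adjusted p = 0.177) and Clock (r = 0.45, exact permutation adjusted p = 0.246) did not pass. No slide holds more than 4 arrays, too few for a correlation within a slide. The exact permutations exchanged the arrays of a group across slides, so the part of slide in these relations was not tested.

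**Figure D4:**
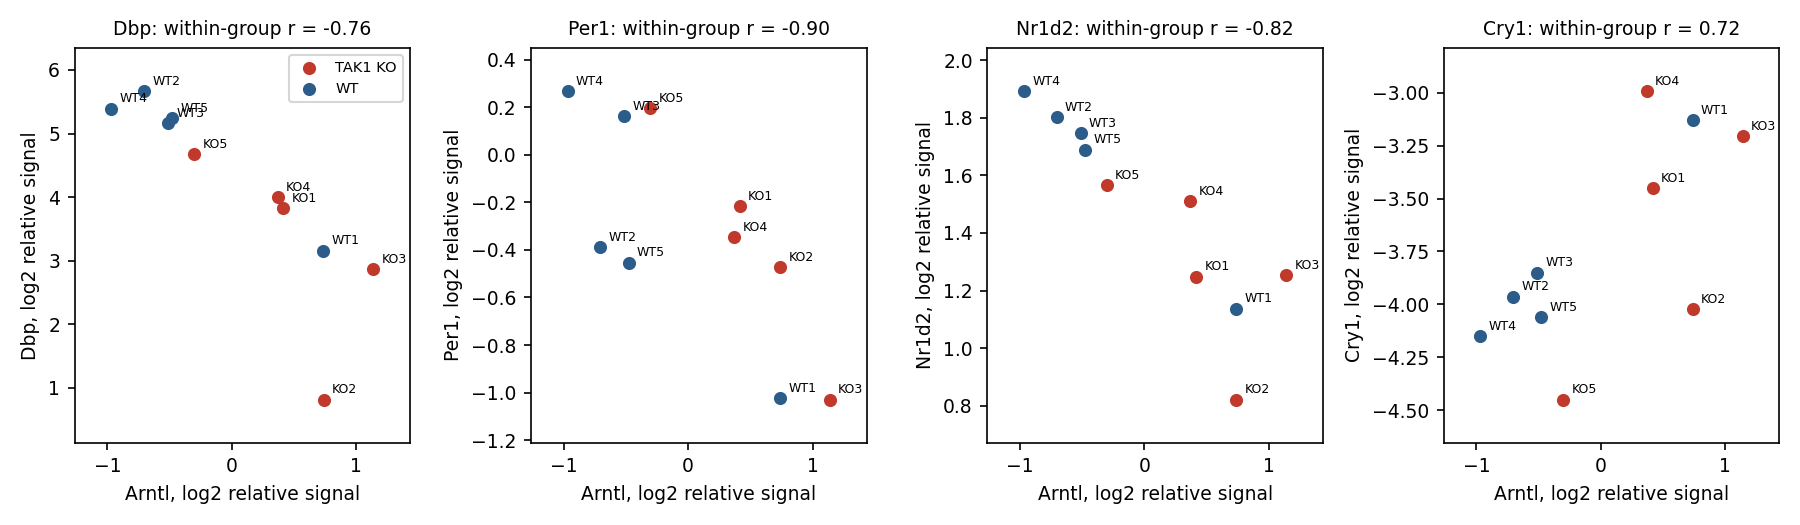
Level of Dbp, Per1, Nr1d2 and Cry1 against the level of Arntl on the same array (log2 relative signal, KO red and WT blue), with the correlation after each group's mean was subtracted above each panel. KO2, KO3 and WT1 have the 3 highest levels of Arntl and the 3 lowest levels of Dbp and of Per1.

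Genes outside the members were ranked by the same within-group correlation over the 10 arrays, among 13894 genes above background on every array, as a description with no test. Most like Dbp was Tef (r = 0.98), another PAR bZip factor, followed by Ghr, the growth hormone receptor (0.97), Afp (0.97), C6 (0.96) and Noa1 (0.96). Among the lowest values against Dbp were those of a transcript named only ENSMUST00000067644 (-0.97), Lrrc8c, Naprt and St6gal1 (each -0.95). Without KO2 these ran from 0.90 to 0.98 and from -0.94 to -0.88. Of these 9 genes, Lrrc8c alone changed between the groups (0.53 ± 0.09, limma adjusted p = 0.0143).

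Most like Arntl were Dtx4 (r = 0.97), Nr5a2, a nuclear receptor of the liver, Enc1, Pcsk5 and Ndrg1 (each 0.94). The lowest were Zfp979 and LOC636537 (each -0.93), Mtss1 (-0.92), Ccdc117 and C030015A19Rik (each -0.91). Zfp979 was the one of these 10 that changed between the groups (-2.04 ± 0.24, limma adjusted p = 0.0021).

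Of 22 further genes of the clock machinery, 19 were tested, and 0 rose and 1 fell in KO, where 2.44% of all genes rose and 3.48% fell. That gene was Gsk3b, a kinase that phosphorylates clock proteins. It had -1.82, -1.95, -2.27, -2.20 and -1.87 on KO1 to KO5, against -1.46, -1.63, -1.58, -1.41 and -1.54 on WT1 to WT5. All KO arrays were below all WT arrays, as for 5.43% of all genes, and the difference was -0.50 ± 0.10 (limma adjusted p = 0.0236), but it passed the threshold in 6 of the 10 fits that left out 1 array. At an unadjusted limma p under 0.05 there were 7 of the 19 (36.8%), against 23.7% of all genes. The median over the list was -0.08, against 0.01 for all genes. With no scaling between arrays these medians were 0.03 for the list and 0.12 for all genes, so that the list stayed below all genes while its sign turned.

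A few genes of that list were chosen for display after their values were seen, because they varied like Dbp. Ciart, a repressor of the ARNTL and CLOCK pair, had -2.17, -6.18, -5.51, -3.77 and -2.25 on KO1 to KO5, against -3.25, -0.58, -0.96, -0.80 and -1.26 on WT1 to WT5 (-2.61 ± 0.85, limma adjusted p = 0.103), and was above background on 3 of the 5 KO arrays. Usp2, a deubiquitinase with a strong daily rhythm in liver, had -1.97, -3.40, -4.41, -2.40 and -1.95 on KO1 to KO5, against -2.94, -0.72, -1.23, -0.65 and -0.99 on WT1 to WT5 (-1.52 ± 0.57, limma adjusted p = 0.147). In both genes WT1 was the lowest WT array and lay among the KO arrays. This likeness to Dbp follows from how the 2 genes were chosen and is no separate result.

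Of 20 liver genes listed as clock outputs, 19 were tested, 0 rose and 2 fell in KO, against 2.44% of all genes that rose and 3.48% that fell. At an unadjusted limma p under 0.05 there were 8 of 19 (42.1%), against 23.7% of all genes. The groups did not overlap for 6 of 19, against 9.61% of all genes. Cyp2a5, a drug-metabolising enzyme, had 6.87, 7.19, 7.29, 7.05 and 7.06 on KO1 to KO5, against 7.63, 7.70, 7.60, 7.87 and 7.82 on WT1 to WT5 (-0.64 ± 0.09, limma adjusted p = 0.00575). Tubb2a, a beta-tubulin, had 6.04, 5.96, 6.20, 5.88 and 5.56 on KO1 to KO5, against 7.23, 7.04, 6.32, 6.30 and 6.75 on WT1 to WT5 (-0.80 ± 0.20, limma adjusted p = 0.043), and passed in 2 of the 10 fits that left out 1 array. In these 2 genes all KO arrays were below all WT arrays, as for 5.43% of all genes, so WT1 could not lie among the KO arrays. Of the 19 tested outputs 17 were below 0, with a median of -0.64 against 0.01 for all genes, of which 48.1% were below 0, and without KO2 there were 14 below 0 and a median of -0.31. The list was chosen with earlier results of these data known, so these shares describe it and do not test the outputs.

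Markers of liver cell types were compared beside these values, as the mean log2 level of each list. Hepatocyte markers, 14 tested and 0 changed, ranged from 6.86 to 7.18 in KO and from 6.98 to 7.09 in WT. Endothelial markers ranged from 0.43 to 0.96 in KO and from -0.16 to 0.32 in WT, and 3 of 14 rose, against 2.44% of all genes. These were Dnase1l3, Flt4 and Fcgr2b, which passed in 7, 5 and 1 of the 10 fits that left out 1 array. Of the 14 endothelial markers 13 were higher in KO. At an unadjusted limma p under 0.05 there were 11, or 78.6%, against 23.7% of all genes. The hepatocyte, macrophage and stellate lists had 3 each at that threshold (21.4%, 21.4% and 27.3%). Of 14 macrophage markers 2 rose, with 1.16 to 2.47 in KO and 1.20 to 2.17 in WT. These were Cd163 and Fcgr3, which passed in 3 and 1 of the 10 fits. Of 11 stellate cell markers Bgn alone rose, passing in 1 of the 10 fits, and the list ranged from 1.01 to 1.51 in KO and from 0.77 to 1.48 in WT. Of 5 cholangiocyte, 8 lymphocyte and 3 erythroid markers tested by limma, 0 changed, with 1 erythroid marker at an unadjusted p under 0.05. Cholangiocyte markers ranged from -1.42 to -0.74 in KO and from -1.75 to -1.10 in WT. Lymphocyte markers ranged from -3.23 to -2.03 in KO and from -2.88 to -2.37 in WT, and erythroid markers from 1.44 to 2.54 in KO and from 1.89 to 2.55 in WT. The part of these markers in the clock gene levels was not tested. On WT1 the hepatocyte list was at 7.09, the highest of the WT arrays, and the endothelial list was at 0.28, within the range of the other WT arrays.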

How the data were processed

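Cy3-labelled liver RNA was hybridised to 10 one-colour arrays, 1 sample each. Per the file headers, the authors' intensity values are processed signals of Feature Extraction 9.5.1.1 (9.5 in the submitters' processing notes), with background removed and spatial trend divided out on each array and nothing scaled across arrays. The authors' series table repeats them (largest difference 0). Here the log2 of each deposited intensity was taken without a pseudocount and reduced by the 75th percentile of its array, and outlier spots were left out. A probe was kept (23266 were) if 4 or more of the 5 arrays in either group flagged it as well above background, and each gene took its brightest probe. Symbols were updated through RefSeq tables, by accession for 22951 probes, current symbol for 6659 and older symbol for 3109. The limma 3.58.1 fit (lmFit and eBayes, R 4.3.3) had genotype as its only term, with Benjamini-Hochberg adjustment over all 15809 genes, and was tested on simulated data. Exact permutations covered 252 splits of the arrays. Tests were two-sided.

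The members and gene lists were chosen with earlier results of these data known. Named were all members, changed genes of the clock, output, glucocorticoid, immediate early and feeding lists, changed cell type markers, and the 5 genes at each end of the likeness to Arntl and Dbp, 1 of which is not reported here. Each array had 51.6% to 62.9% of probes well above background, and the number of arrays limits the precision. Replicate numbers were not used as pairs. The alternatives covered scaling, background correction, the filter, probe choice, slide, weights and leaving out each array. RefSeq promoters covered 9 of the 10 members (13 windows).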

Additional observations from a re-analysis of the deposited data

Results flagged for a closer look

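Dixon's gap test at 5 arrays (critical value 0.71 of the group's range) was applied to 42 groups of arrays, the 17 member probes and 4 list genes in KO and in WT, and it marked 7 of them, where chance marks about 1 in 20 and the same gap was found for 9.34% of all genes in KO and 6.92% in WT. The probes vary together, so the 7 are not independent. Of the 7, 5 were WT1. Arntl stood at 0.74 on WT1, against -0.48 on the nearest other WT array. Dbp stood at 3.16 on WT1, against 5.16, and Nr1d2 at 1.14, against 1.69. The brighter Per2 probe stood at -1.22 on WT1, against -0.39, and Per3 at -5.04, against -3.61. These 5 values on WT1 lay within the KO range of the same probe. The other 2 were of WT5, on dim probes: the Nr1d1 probe named from a cDNA clone was at -2.96, against -3.66, and the dimmer Per2 probe was at -2.36, against -3.09. No group of KO arrays was marked. The cause of the position of WT1 was not tested.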

How the results depend on the processing

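Across 24 or 25 alternatives for each member, Arntl, Clock, Cry1, Per2, Per3, Nr1d1, Nr1d2 and Dbp kept their sign, and the 1 call of a member was Clock under normexp background correction with quantile normalization (0.31, limma adjusted p = 0.0405). Over all alternatives the differences ran from 0.69 to 1.24 for Arntl, 0.18 to 0.39 for Clock, 0.05 to 0.50 for Cry1, -1.41 to -0.33 for Per2, -2.32 to -0.48 for Per3, -0.87 to -0.01 for Nr1d1, -0.58 to -0.26 for Nr1d2 and -2.74 to -1.08 for Dbp. Per1 turned positive with no scaling (0.022). Leaving out 1 array in turn gave -0.271 to 0.077 for Per1 (positive without KO3, WT3 or WT4, at 0.077, 0.025 and 0.052), 0.69 to 1.14 for Arntl and -2.13 to -1.08 for Dbp. The count of changed genes over the whole table moved more. It was 153 higher with median centring, 156 lower of 470 with no scaling, and 80 higher and 167 lower of 247 with no filter on dim probes. With slide as a fixed block it was 13 higher and 25 lower of 38, within slide 2 it was 2 higher and 0 lower of 2, and with slide as a random block 644 higher of 1451. With the replicate block it was 60 higher and 106 lower of 166, and no member passed in that fit. The numbers do not pair the arrays: deviations of same-numbered KO and WT arrays correlated at -0.21 to 0.04, and 0 of 5 KO and 0 of 5 WT arrays correlated best with their own number. Leaving out 1 array gave 113 to 536 higher, 184 to 655 lower and 297 to 1191 in all.

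Changed genes of the clock lists moved with these counts. The other clock genes had 0 lower with no scaling, no filter, the mean over probes, slide as a fixed block, within slide 2 and the replicate block, and 0 to 1 lower when 1 array was left out. The clock outputs had 1 lower with no scaling, normexp, quantile normalization and no filter, 0 lower with slide as a fixed block, within slide 2 and with the replicate block, 1 higher with slide as a random block, array weights and an intensity trend, and 1 to 2 lower and 0 to 2 higher when 1 array was left out. The cause of these moves was not tested. Per3, Cry1 and Npas2 were near background, so small signals there are not resolved.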

Other observations

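Lists of other pathways that act on clock genes gave these values, as mean log2 levels of each list. Glucocorticoid-response genes, 11 tested and 0 changed by limma (0 at an unadjusted p under 0.05), ranged from 1.77 to 3.10 in KO and from 1.68 to 2.43 in WT. The highest KO value was that of KO2 (next 2.29 on KO5), and the highest WT value that of WT1 (next 2.03 on WT3). The genes of this list did not move together. On KO2, Mt1 (5.21), Mt2 (7.23), Lcn2 (2.34) and Tsc22d3 (3.93) had their highest KO value. Sgk1, Tat, Dusp1, Errfi1 and Nr3c1 had their lowest KO value there. On WT1, Mt1, Mt2, Lcn2, Sgk1, Dusp1 and Errfi1 had their highest WT value, but Fkbp5, Klf9 and Nr3c1 had their lowest. On WT1 the immediate early list (-0.98) and the feeding list (4.53) were the highest of the WT arrays too. Immediate early genes, 11 tested and 0 changed by limma (2 at an unadjusted p under 0.05), ranged from -1.16 to -0.47 in KO and from -1.29 to -0.98 in WT. Of 12 genes that respond to feeding and fasting, 1 changed, against 5.91% of all genes. It was Srebf1, the lipogenic transcription factor, which had 6.50, 4.62, 5.81, 5.87 and 6.00 on KO1 to KO5, against 6.99, 7.16, 6.91, 6.91 and 6.87 on WT1 to WT5 (-1.21 ± 0.28, limma adjusted p = 0.0367). It passed in 2 of the 10 fits that left out 1 array, and its limma adjusted p was 0.0679 with no scaling and 0.0981 with no filter on dim probes. Srebf1 was lowest on KO2, as Dbp was. It was named because it changed, and all its KO arrays were below all WT arrays, so WT1 could not lie among the KO arrays. The part of feeding or stress in the clock gene levels was not tested.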
